A study of Mus musculus with 16 samples.

Results

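Mice bearing tumors whose cells carried a knock-down of Rab27 (KD mice, n = 4) were compared with mice bearing the same tumor lines without the knock-down (CAC mice, n = 4). These 8 gastrocnemius libraries were taken from the 16 of the series by their group labels. The other two groups served as background: normal mice injected with PBS in place of tumor cells (NOR, n = 4), and amiloride-treated tumor mice (AM, n = 4, 2 mg/kg daily), which entered the CPM scaling, the fits over more than 8 libraries and the ranges given over all 16.

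In each group the labels gave replicates 1 and 2 as C57BL/6 mice and replicates 3 and 4 as BALB/c mice. Lewis lung carcinoma (LLC) cells were injected under the skin of C57BL/6 mice, 700000 per mouse, and CT26 colon carcinoma cells under the skin of BALB/c mice, 1000000 per mouse. NOR, CAC and KD mice all received daily intraperitoneal PBS from day 9, were 6 to 8 weeks old at the start, and gave muscle on day 30. The knock-down was made with lentiviral short hairpin RNAs against Rab27a and Rab27b in the tumor cells alone, so Rab27 levels in muscle are no check of it. Mouse strain and tumor line changed together and cannot be told apart.

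Rab27a and Rab27b are small GTPases that dock multivesicular endosomes at the plasma membrane, and their loss lowers the release of exosomes from many tumor cells. Cachectic muscle shrinks because proteins are broken down faster than they are made. FoxO transcription factors and glucocorticoids raise the ubiquitin ligases atrogin-1 (Fbxo32) and MuRF1 (Trim63), which mark muscle proteins for the proteasome. Interleukin-6 (IL-6), which binds the receptor Il6ra and the shared chain Il6st and activates STAT3, is a classic circulating signal of tumor-bearing hosts.

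Libraries held 43676601 to 61032708 counts in the CAC and KD mice, and 35913190 to 61032708 over all 16. Values below are CPM (counts scaled to the library total) with edgeR's TMM scaling, and log2 fold changes are KD over CAC. Markers of muscle fibres (7 genes, none at 0 in a library) summed to 50334 to 110900 CPM in CAC mice and 87296 to 141590 CPM in KD mice, which placed all 8 libraries in skeletal muscle. Markers of B lymphocytes divided the libraries without regard to group: they summed to 1.00, 132, 360 and 1.32 CPM in CAC-1 to CAC-4 and to 307, 0.475, 0.510 and 112 CPM in KD-1 to KD-4. T lymphocyte markers followed the same order of high and low libraries. In bulk muscle, fewer cells of a type and less RNA per cell cannot be told apart.

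No wide gap in any gene divided the libraries by labelled strain, and smaller gaps were not examined. None of the 21923 genes in the table separated the labelled C57BL/6 from the labelled BALB/c libraries by a gap of at least 4-fold, among the 8 libraries or among all 16. By contrast, CAC-4 and KD-1, which carry different strain labels, stood apart together from the other 6 libraries in 21 genes, whereas the 15 other pairings of a CAC with a KD library gave 0 or 1 gene. Trim12a was at 0.00 CPM in CAC-4 and 0.0381 CPM in KD-1 against 5.36 to 21.8 CPM in the other 6. KD-3 had 0.00 CPM over 4 Y-linked genes, which summed to 110 to 172 CPM in the other 15 libraries, and the labels and the study's supplement give both sexes for BALB/c mice, while its main methods give males. Strain is therefore named below only as labelled, and the effect of leaving out CAC-4 and KD-1 together is given with the overall comparison.

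The 2 promoters below belong to the gene that passed the test, Il6ra, and to Trim63, the atrophy ligase with the lowest p-value. Each is the 250 bases before the annotated start (RefSeq, GRCm38.p6), 5′ to 3′ on the gene's strand, at chr3:89913197-89913446 (minus strand) for Il6ra and chr4:134314870-134315119 (plus strand) for Trim63. Capitals mark a FoxO element (GTAAACA, read on the opposite strand) that begins 194 bases before the Trim63 start.
Il6ra: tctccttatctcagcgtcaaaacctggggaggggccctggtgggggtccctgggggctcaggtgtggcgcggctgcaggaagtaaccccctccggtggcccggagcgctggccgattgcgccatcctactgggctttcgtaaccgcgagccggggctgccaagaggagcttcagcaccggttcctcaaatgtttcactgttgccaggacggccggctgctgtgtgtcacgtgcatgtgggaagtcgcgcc
Trim63: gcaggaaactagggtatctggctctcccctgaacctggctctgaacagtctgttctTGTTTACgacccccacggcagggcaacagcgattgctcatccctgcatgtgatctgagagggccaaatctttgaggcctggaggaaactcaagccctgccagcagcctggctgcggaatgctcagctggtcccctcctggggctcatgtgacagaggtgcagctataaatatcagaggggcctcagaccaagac
The FoxO element occurs on either strand in 3.17% of 32851 such windows, the STAT element TTCNNNGAA in 7.02% and the C/EBP element TTGCNNCAA in 1.74%. Of 68 genes named here with a window in the table, 3 held the FoxO element (Akr1b10, Akt1 and Trim63), 3 the STAT element (Arhgap27, Dbp and Gabarap) and 0 the C/EBP element. The Il6ra window held none of them.

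The question of this comparison is whether muscle differs when the tumor releases fewer exosomes. With DEGs defined by edgeR's quasi-likelihood F test at a Benjamini-Hochberg adjusted p (FDR) of at most 0.05 and a change of at least 1.5-fold, 1 of 14593 genes tested was lower in KD mice (0.00685%) and 0 were higher (0%). At an unadjusted p under 0.05, 884 genes (6.06%) were higher and 743 (5.09%) lower. DESeq2 at the same limits gave 237 higher (1.62%) and 103 lower (0.706%) DEGs, limma-voom gave 0 and 0, and a fit of all 16 libraries, in which the NOR and AM mice also estimate the spread, gave 90 (0.591%) and 55 (0.361%). DESeq2 and the fit of all 16 libraries shared 140 genes. The labels number the libraries as replicates of a group, and p-values measure only the spread between them.

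The values of all 4 KD mice lay above all 4 CAC mice in 530 genes (3.63%) and below them in 492 (3.37%). The median log2 fold change over all genes tested was 0.00018, with 7299 genes (50%) above 0 and 7294 (50%) below. Without KD-2, the 8-library design gave 0 DEGs, Il6ra no longer passing. At an unadjusted p under 0.05, 1111 genes (7.48%) were then higher and 1386 (9.33%) lower, the highest such counts with any 1 of the 8 mice left out. Also without KD-2, DESeq2 gave 468 (3.15%) and 443 (2.98%) DEGs, and the fit of all other libraries gave 432 (2.81%) and 393 (2.55%). Without KD-3, the fit of all other libraries gave 43 and 29. In the 8-library design, leaving out CAC-1, CAC-3 or KD-4 lowered the number of lower genes at an unadjusted p under 0.05 to 490, 455 and 408.

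Without CAC-4 and KD-1 together edgeR gave 0 higher and 0 lower DEGs, and 869 and 499 genes at an unadjusted p under 0.05. All 84 named genes kept the direction of their log2 fold change, and 13 moved by over 1.5 times. Those included Mt1 (-3.13 to -1.98) and Lcn2 (-1.64 to -0.77), both nearer 0 than with all mice. The medians of FoxO, glucocorticoid-response, acute-phase and autophagy genes went from -0.41 to -0.22, -0.59 to -0.34, -1.35 to -0.85 and -0.17 to -0.11. The median of slow sarcomere genes went from 0.70 to 1.24, and that of IL-6 family genes from -0.34 to -0.51. Trim63, Fbxo32 and Mt2 had log2 fold changes of -1.93, -1.499 and -2.61.

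**Figure D1:**
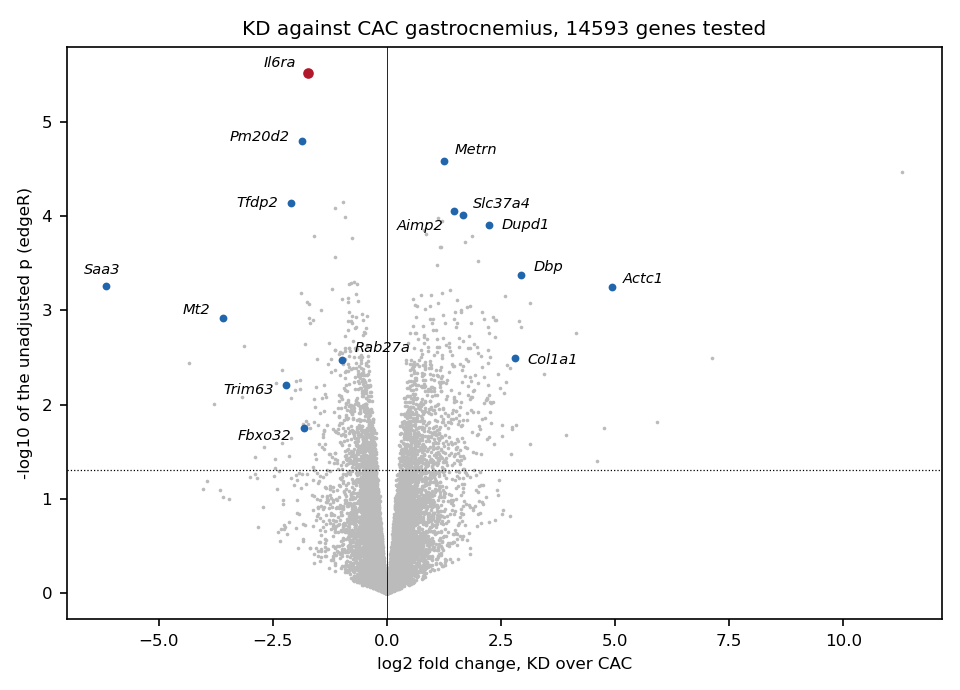
Log2 fold change of KD over CAC mice (x axis) against −log10 of the unadjusted edgeR p (y axis) for 14593 genes, with the dotted line at the 0.05 limit. Il6ra, in red, is the single gene past the FDR limit at a log2 fold change of -1.72.

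Il6ra, the ligand-binding chain of the IL-6 receptor (ENSMUSG00000027947, chromosome 3, 89864059 to 89913196, minus strand, GRCm38), was the DEG. Its level was 49.8, 65.1, 81.7 and 71.6 CPM in CAC-1 to CAC-4 and 17.8, 23.0, 20.9 and 19.6 CPM in KD-1 to KD-4. The groups did not overlap, and KD-2 stood with the other KD mice. NOR mice had 9.35, 15.4, 18.3 and 22.1 CPM, a range that held 3 of the 4 KD mice. Il6ra fell 3.29-fold, from 67.1 ± 13.4 to 20.3 ± 2.20 CPM (SD, n = 4 each; log2 fold change -1.72, SE 0.160, edgeR quasi-likelihood p 3.03e-06, Benjamini-Hochberg FDR 0.0443). Over 27 alternative fits its log2 fold change lay between -1.93 and -1.47, it was a DEG in 9, and its FDR ran from 9.98e-16 to 0.993. With a single mouse left out, the call held only without CAC-1. Without CAC-4 and KD-1 the log2 fold change was -1.63 and the edgeR FDR 0.433.

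Of 19 measured genes of the IL-6 family receptors and the STAT3 response, Il6ra included, 14 were lower and 5 higher. At an unadjusted p under 0.05 these were 7 and 0 (5.09% and 6.06% of all genes). The median log2 fold change was -0.34, or -0.58, -0.53 and -0.52 without KD-1, CAC-2 and KD-2. Il6ra was the only member past the FDR limit. Il6st, the signal-transducing chain, was at 255, 250.4, 216 and 292 CPM in CAC mice and 225, 172, 215 and 209 CPM in KD mice (log2 fold change -0.30, SE 0.153, edgeR FDR 0.516). Osmr, the oncostatin M receptor, was at 83.0, 61.5, 69.3 and 99.9 CPM against 43.1, 66.1, 49.9 and 28.4 CPM, so KD-2 lay within the CAC range. Metallothionein Mt2, which binds zinc and is induced by STAT3 and glucocorticoids, was at 153, 149, 182 and 597 CPM in CAC mice and at 10.7, 52.7, 8.50 and 18.2 CPM in KD mice, with NOR mice at 5.44 to 20.9 CPM. The groups stood apart and KD-2 was the highest KD mouse (log2 fold change -3.58, SE 0.754, edgeR FDR 0.231, 0.0357 in the fit of all 16 libraries). Mt1 had the same order of mice, at 189, 170.4, 251 and 1011 CPM against 30.1, 92.3, 21.9 and 41.1 CPM. In Mt2, 58.1% of the 31-base words of its transcripts also occur in other genes, so its value is uncertain where reads could be split.

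Acute-phase genes, which encode proteins that liver and inflamed tissue release, were lower in 10 of 11 measured members, with 3 at an unadjusted p under 0.05 (5.09% of all genes) and a median log2 fold change of -1.35, which was -0.52 without CAC-4. Saa3, a serum amyloid A made outside the liver, was at 7.93, 3.29, 39.4 and 16.2 CPM in CAC mice and at 0.172, 0.200, 0.00 and 0.543 CPM in KD mice. All 4 KD mice were near the NOR level of at most 0.149 CPM (log2 fold change -6.14, SE 1.15, edgeR p 0.000553, FDR 0.231). Lcn2 and Serpina3n did not follow Saa3. Serpina3n, a protease inhibitor, was at 72.9, 51.6, 71.3 and 299.9 CPM in CAC mice and 106, 9.62, 3.74 and 71.7 CPM in KD mice, so that KD-1 and KD-4 lay within the CAC range. Those 2 mice also had the higher neutrophil markers among KD mice (333 and 279 CPM, against 131 in KD-2, 14.4 in KD-3 and 106 to 257 in CAC mice), and their part in the result was not tested. Slc39a14, a zinc importer reported in cachectic muscle, was at 53.4, 34.4, 52.0 and 108 CPM against 16.5, 25.2, 17.2 and 17.0 CPM. KD-1, KD-3 and KD-4 were at the NOR level of 13.6 to 19.0 CPM and KD-2 somewhat above it (log2 fold change -1.71, SE 0.342, edgeR FDR 0.231, 0.0259 in the fit of all 16 libraries).

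Beyond Il6ra, the genes with the lowest p-values were ones in which all 4 KD mice, KD-2 included, stood apart from all CAC mice. KD-2 counted in the p-value that picked Il6ra and these genes, so its place beside the other KD mice was favored by the pick. Among those lower in KD mice, Pm20d2, a dipeptidase, was at 30.2, 28.2, 27.2 and 40.6 CPM in CAC mice and at 5.79, 9.45, 10.5 and 9.36 CPM in KD mice (log2 fold change -1.85, SE 0.213, edgeR FDR 0.117). Tfdp2, a partner of E2F factors, was at 124, 103, 137 and 225 CPM against 28.5, 23.9, 40.8 and 44.1 CPM, with KD-2 the lowest of all. The leptin receptor Lepr was at 18.9, 21.2, 25.5 and 21.5 CPM against 9.68, 11.3, 13.2 and 11.7 CPM. Mocos, Tango2, Arhgap26 and Arhgap27 completed the 8 lowest, with log2 fold changes of -0.97, -1.13, -1.60 and -0.77.

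Among the genes higher in KD mice, Metrn, which encodes the secreted factor meteorin, had the lowest p-value. It was at 12.5, 12, 9.38 and 12.2 CPM in CAC mice, 23.7, 24.4, 30.6 and 31 CPM in KD mice and 31.7 to 43.6 CPM in NOR mice (log2 fold change 1.25, SE 0.153, edgeR FDR 0.124). An antisense transcript shares 46.2% of its 31-base words, and the counting was not stated to use strand. Slc37a4, the glucose-6-phosphate transporter, was at 32.6, 36.6, 19.5 and 19.7 CPM against 85.4, 75.6, 80.3 and 103 CPM. Dupd1, a dual-specificity phosphatase of muscle, was at 9.13, 10.2, 5.99 and 3.90 CPM against 48.8, 26.9, 29.7 and 32.3 CPM. KD-2 was on the side of the other KD mice in both, which the pick by p-value favored. Aimp2, Alpl, Akr1b10, Calm2 and Fam213b completed the 8, at log2 fold changes of 1.48, 1.11, 1.20, 0.82 and 0.85.

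KD-2 was the highest KD mouse for the atrophy ligases Trim63 and Fbxo32. Trim63 (chromosome 4, 134315120 to 134329629) was at 2758, 1718, 2016 and 1800 CPM in CAC mice, at 99.1, 1024, 378 and 301 CPM in KD mice and at 529.9, 322, 269.6 and 342 CPM in NOR mice. KD-1 was below every NOR mouse, KD-3 and KD-4 were within their range, and KD-2 lay between the NOR and the CAC range. The mean was 2073 ± 474 against 450.3 ± 400 CPM (SD, n = 4 each; log2 fold change -2.21, SE 0.613, p 0.00626, FDR 0.277 by edgeR's quasi-likelihood test; FDR 0.00557 with DESeq2). Without KD-2 the log2 fold change was -3.02.

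Fbxo32 (chromosome 15, 58175879 to 58214932) was at 1123, 770.5, 925 and 885 CPM in CAC mice, at 55.0, 619, 225 and 154 CPM in KD mice and at 222, 165, 93.1 and 140.4 CPM in NOR mice. Its groups also stood apart, with KD-2 near the lowest CAC mouse (log2 fold change -1.82, SE 0.621, edgeR FDR 0.351, and -2.70 without KD-2). The ligase list as a whole did not move one way, with a median log2 fold change of -0.0049. Of 16 members 8 were higher and 8 lower, 1 and 5 at an unadjusted p under 0.05 (6.06% and 5.09% of all genes). KD-1 to KD-4 lay within the CAC range for 6, 6, 5 and 7 of the 16 members. Over all 14593 genes, the share within that range was 42.1%, 48.0%, 42.9% and 49.4%. Besides Trim63 and Fbxo32, the lower members at that p were Fbxo31, Itch and Cblb, at log2 fold changes of -0.86, -0.24 and -0.28.

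**Figure D2:**
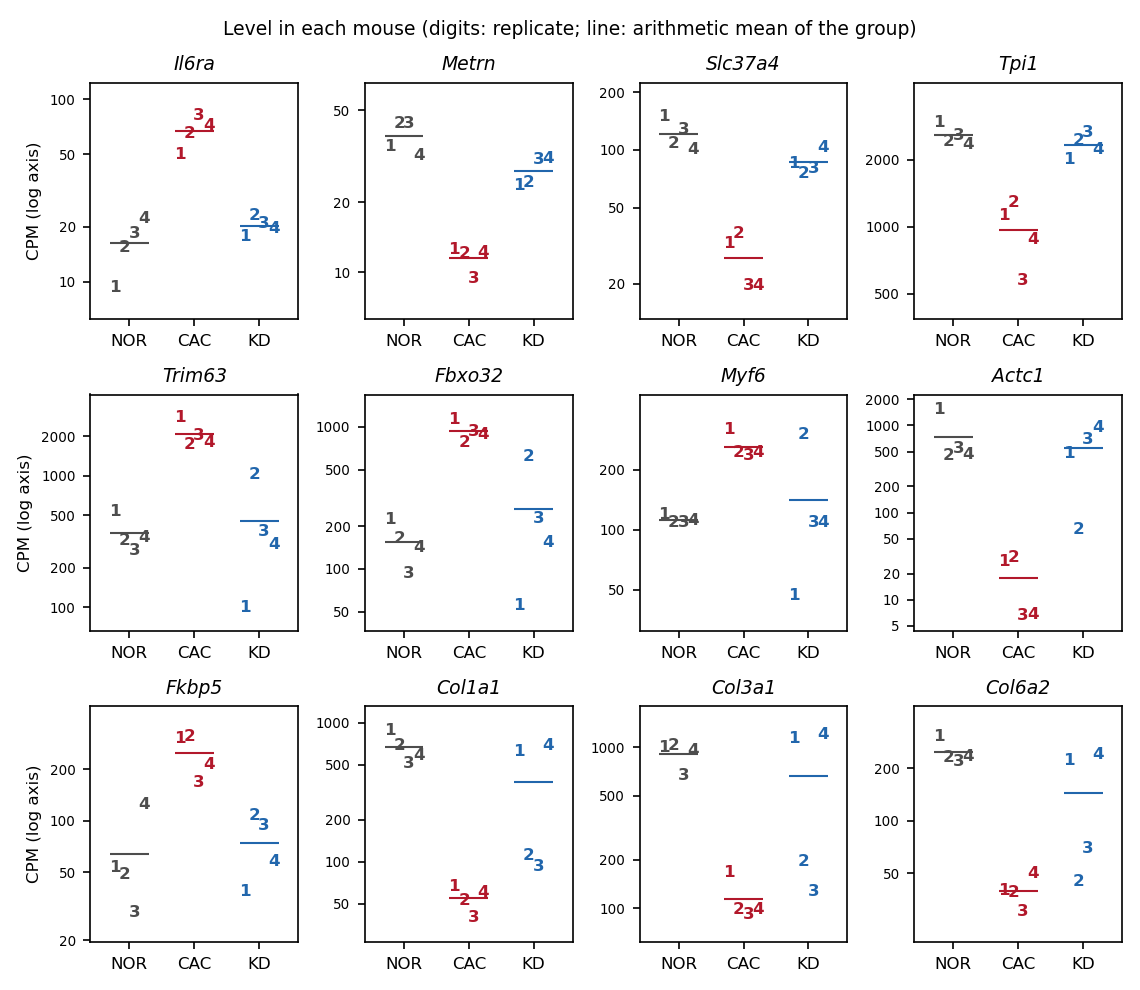
TMM-scaled CPM on a log axis (y) of 12 genes in NOR, CAC and KD mice (x), with each digit a mouse by its replicate number and each line the group mean. Il6ra has all KD mice together, at 17.8 to 23.0 CPM, whereas Trim63, Fbxo32 and Myf6 have KD-2 nearest to the CAC mice, at 1024, 619 and 302 CPM.

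The FoxO factors, C/EBP factors and other catabolic regulators of their list were lower in 10 of 14 members (median log2 fold change -0.41, -0.22 without KD-1). At an unadjusted p under 0.05, 4 were lower and 2 higher (5.09% and 6.06% of all genes). Eif4ebp1, a brake on translation, was at 271, 247, 448 and 436 CPM in CAC mice and at 62.6, 164, 67.1 and 88.1 CPM in KD mice (log2 fold change -1.87, SE 0.359, edgeR FDR 0.231, 0.0259 in the fit of all 16 libraries). Foxo1 itself was at 149.9, 137, 124 and 135 CPM against 54.1, 99.8, 83.4 and 45.2 CPM. In both genes KD-2 was the highest KD mouse and lay below all CAC mice. Cdkn1a, a cell cycle inhibitor, was at 75.6, 47.1, 114 and 197 CPM against 18.4, 55.5, 21.2 and 12.2 CPM, with KD-2 inside the CAC range. Sesn1, an inhibitor of mTOR, had a log2 fold change of -1.44, and Tob1, an antiproliferative factor, was higher at 0.81.

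All 32 measured proteasome subunits had lower fitted values in KD mice, with a median log2 fold change of -0.45. Of these, 15 were at an unadjusted p under 0.05 (5.09% of all genes) and 0 were DEGs. KD-2 was within the CAC range in 22 of the 32, KD-3 in 12, KD-4 in 3 and KD-1 in 0, against the 48.0%, 42.9%, 49.4% and 42.1% of all genes given above. For 12 of the 32 subunits KD-2 was the only KD mouse not below all CAC mice, against 6.07% of all genes. Psma7, of the core particle, was at 203, 203, 262 and 239.6 CPM in CAC mice and at 92.5, 158, 108 and 102 CPM in KD mice (log2 fold change -0.97, SE 0.191, edgeR FDR 0.231). Psmd4, a ubiquitin receptor of the cap, was at 362, 347, 389 and 358 CPM against 120.2, 276, 219 and 162 CPM. With KD-2 left out, 28 of the 32 were lower at an unadjusted p under 0.05 (9.33% of all genes), with a median of -0.61.

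Autophagy genes, which build and fill the vesicles that deliver cell contents to lysosomes, were lower in 22 of 24 members, 2 of them at an unadjusted p under 0.05 (5.09% of all genes), and the median log2 fold change was -0.17, or -0.28 without KD-2 and -0.10 without KD-1. Bnip3, a mitophagy receptor, was at 398, 335, 367 and 363 CPM in CAC mice and at 101, 399.7, 221 and 168 CPM in KD mice, so KD-2 was above every CAC mouse, although 57% of its 31-base words occur in other genes. Gabarap, a component of the autophagosome membrane, was at 224, 213, 235 and 268 CPM against 136, 247, 169.96 and 147 CPM. For 7 of the 24 genes KD-2 was the only KD mouse not beyond the CAC mice, against 9.53% of all genes. Without KD-2, 8 of the 24 were lower at an unadjusted p under 0.05 (9.33% of all genes).

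KD-2 also lay apart from the other KD mice in several genes of the muscle lists, of which Myf6, Ankrd1 and Actc1 are given. Myf6, a myogenic factor of mature fibres, was at 318, 245, 235 and 245 CPM in CAC mice, at 46.7, 302, 109 and 109 CPM in KD mice and at 109 to 119.5 CPM in NOR mice (log2 fold change -0.89, edgeR p 0.102; -1.58 without KD-2). Ankrd1, a stretch-induced titin-binding protein, was at 26.3, 65.9, 34.1 and 30.8 CPM against 3.83, 27.3, 9.74 and 8.40 CPM, and KD-2 again lay inside the CAC range. Actc1, the cardiac actin gene that adult skeletal muscle retains at a low level, was at 27.2, 30.6, 6.58 and 6.83 CPM in CAC mice and at 482, 64.7, 698 and 956 CPM in KD mice. Each KD mouse was above each CAC mouse, KD-2 by the least, and NOR mice had 448 to 1511 CPM (log2 fold change 4.94, SE 0.926, edgeR FDR 0.231, 0.0484 in the fit of all 16 libraries).

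Over all 14593 genes, there were 1391 in which KD-2 was the only KD mouse that did not lie beyond all CAC mice on the side of the other 3, of which 886 had the other 3 below and 505 above. The same count was 733 for KD-1, 463 for KD-3 and 210 for KD-4. The median absolute log2 difference of KD-2 from the CAC mean was 0.254 and from the NOR mean 0.291, whereas for KD-4 these were 0.253 and 0.145, for KD-3 0.284 and 0.244 and for KD-1 0.334 and 0.269. KD-2 was thus the single KD mouse whose median difference was smaller from CAC than from NOR mice. Its fibre markers summed to 140010 CPM, above every CAC mouse, and its erythrocyte markers to 21389 CPM, against 3633 to 8633 in CAC mice and 2185 to 3928 in the other KD mice. The part of this blood signal in the position of KD-2 was not tested.

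**Figure D3:**
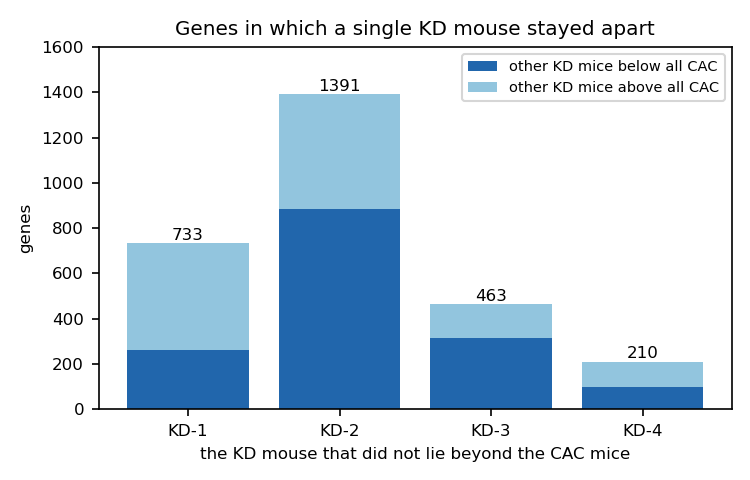
Number of genes (y axis) in which a single KD mouse (x axis) did not lie beyond all 4 CAC mice while the other 3 KD mice did, with the other 3 above or below shown apart. KD-2 has 1391 such genes in all, against 733, 463 and 210 for KD-1, KD-3 and KD-4.

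Glucocorticoid-response genes were lower in 12 of 14 members, 6 of them at an unadjusted p under 0.05 (5.09% of all genes), at a median log2 fold change of -0.59, and all 4 KD mice were below all CAC mice in 6 (3.37%). The median was -0.97 without KD-2 and -0.29 without KD-1. Fkbp5, a chaperone of the glucocorticoid receptor and a sensitive target of it, was at 303, 312, 166 and 212 CPM in CAC mice and at 38.6, 107, 93.0 and 57.6 CPM in KD mice (log2 fold change -1.75, SE 0.348, edgeR FDR 0.231, 0.000214 with DESeq2). NOR-1 to NOR-4 were at 53.1, 48.3, 29.0 and 124 CPM. Their range held all 4 KD mice, but held KD-2, KD-3 and KD-4 only through NOR-4. Klf15, a regulator of amino acid breakdown, was at 137, 111, 101 and 105 CPM against 36.9, 74.0, 90.8 and 55.6 CPM, with KD-3 nearest to CAC mice. The mean log2 CPM of the list relative to NOR mice was 1.51, 1.32, 1.02 and 1.41 in CAC-1 to CAC-4 and -0.73, 1.21, 0.97 and 0.33 in KD-1 to KD-4, so KD-2 and KD-3 were the KD mice closest to CAC mice. The receptor gene Nr3c1 was at 116, 113, 83.0 and 84.7 CPM against 87.5, 88.1, 126 and 116 CPM (log2 fold change 0.07, SE 0.179, edgeR FDR 0.946).

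**Figure D4:**
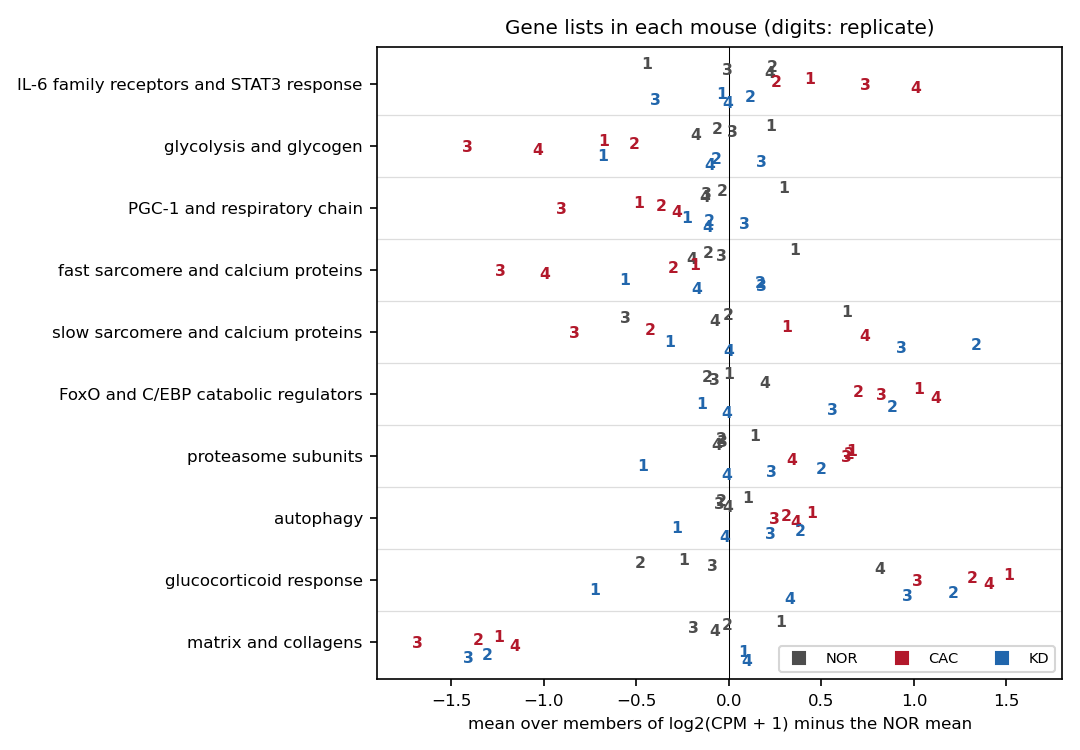
Mean over the members of log2(CPM + 1) minus the NOR mean (x axis, log2 units) for 10 gene lists (y axis). Each digit is a NOR, CAC or KD mouse by its replicate number, with the group shown by color. For proteasome subunits the KD mice run from -0.46 (KD-1) to 0.50 (KD-2) against 0.34 to 0.66 in CAC mice, and for glycolysis KD-2, KD-3 and KD-4 lie above all CAC mice.

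Glycolysis genes had mostly higher fitted values in KD mice, with 0 DEGs, and KD-1, KD-2 and KD-4 each lay within the CAC range in 4 of 18 and KD-3 in 1 (42.1% to 49.4% of all genes). Of 18 glycolysis and glycogen genes, 17 were higher, 9 of them at an unadjusted p under 0.05 (6.06% of all genes), at a median log2 fold change of 0.75, and all KD mice were above all CAC mice in 8 (3.63%). Tpi1, triose-phosphate isomerase, was at 1124, 1292, 573 and 872 CPM in CAC mice, at 2004, 2453, 2652 and 2238 CPM in KD mice and at 2342 to 2964 CPM in NOR mice. The groups were apart and KD-1 was the lowest KD mouse (log2 fold change 1.27, SE 0.272, edgeR FDR 0.231, 0.0306 in the fit of all 16 libraries). Pkm and Pgk1, the 2 kinases of the pathway that make ATP, had log2 fold changes of 1.14 and 0.87, and 34.7% and 54.7% of their 31-base words occur in other genes. The glucose transporter gene Slc2a4 was at 706, 697, 547 and 704 CPM against 466, 905, 922 and 721 CPM, with overlapping groups.

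Of 28 genes of PGC-1 and the respiratory chain, 25 were higher, 14 at an unadjusted p under 0.05 (6.06% of all genes) and 11 without overlap (3.63%), with a median log2 fold change of 0.40. Idh3a, a citric acid cycle subunit, was at 256, 296, 182 and 276 CPM in CAC mice and at 411, 391, 507 and 467 CPM in KD mice (log2 fold change 0.81, SE 0.188, edgeR FDR 0.263). Cox7a1, a muscle form of a cytochrome oxidase subunit, was at 26.4, 36.3, 11.9 and 27.4 CPM against 51.1, 54.8, 59.3 and 55.7 CPM. Oxct1, which lets muscle burn ketone bodies, was at 155, 161, 93.5 and 187 CPM against 277, 231, 407 and 314 CPM, while Acss1, which activates acetate in mitochondria, was lower at a log2 fold change of -0.88. Fatty acid genes were higher in 13 of 20 and lower in 7, 3 and 2 at an unadjusted p under 0.05 (6.06% and 5.09% of all genes), with a median of 0.27 that was 0.09 without KD-1. KD-2 lay within the CAC range in 13 of them (48.0% of all genes).

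Fast sarcomere and calcium genes were higher in 15 of 16 members, 3 at an unadjusted p under 0.05 (6.06% of all genes). Their median log2 fold change was 0.44, or 0.29 without CAC-3. Casq1, the calcium store protein of fast fibres, was at 952, 1139, 373 and 532 CPM in CAC mice and at 2240, 2321, 3253 and 2868 CPM in KD mice (log2 fold change 1.83, SE 0.368, edgeR FDR 0.231). Myl1, a fast myosin light chain, was at 2896, 3614, 1120 and 1061 CPM against 4928, 5067, 5119 and 5921 CPM. In both genes CAC-3 and CAC-4 were the lowest mice. Slow sarcomere genes were higher in 12 of 13 members with a median of 0.70, but 0 were without overlap (3.63% of all genes above, 3.37% below). Only 1, Myl3, had an unadjusted p under 0.05 (6.06% of all genes higher). KD-2 and KD-3 had the highest values. Myh7, the slow myosin heavy chain, was at 424, 2462, 2113 and 855 CPM in KD-1 to KD-4 and at 1126, 422, 392 and 921 CPM in CAC mice. Without KD-2 the median of the slow genes was 0.24.

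Amino acid, polyamine and creatine genes were higher in 13 of 22 and lower in 9, 6 and 1 at an unadjusted p under 0.05 (6.06% and 5.09% of all genes), with a median log2 fold change of 0.13 that was 0.02 without KD-2 and 0.08 without KD-4. The polyamine enzymes differed most: Smox, spermine oxidase, was at 88.7, 94.4, 32.8 and 31.2 CPM in CAC mice, 235, 415, 143 and 367 CPM in KD mice and 461 to 527 CPM in NOR mice (log2 fold change 2.23, SE 0.497, edgeR FDR 0.244). Amd1, which supplies the aminopropyl donor, was at 206, 269.8, 84.6 and 69.3 CPM against 496, 659, 189.8 and 962 CPM. KD-3 was the lowest KD mouse in both and lay within the CAC range for Amd1, of which 82.8% of the 31-base words occur in other genes. Gamt, which makes creatine, had a log2 fold change of 1.57.

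Genes of insulin, IGF and mTOR signaling were divided, 11 of 20 higher and 9 lower, with a median log2 fold change of 0.05. At an unadjusted p under 0.05 these were 2 and 4 (6.06% and 5.09% of all genes). Igfbp5, an IGF-binding protein abundant in muscle, was at 217, 319.9, 103 and 191 CPM in CAC mice and at 591, 503, 800.0 and 699 CPM in KD mice (log2 fold change 1.63, SE 0.334, edgeR FDR 0.231, 0.0342 in the fit of all 16 libraries). Irs1, the insulin receptor substrate, was higher at a log2 fold change of 0.80. Pik3r1, the regulatory subunit of PI3-kinase, was at 223, 261, 236 and 172 CPM against 65.9, 125, 117 and 82.9 CPM, and Akt1 at 173, 171, 273 and 256 CPM against 106, 153, 116 and 115 CPM. In these genes no KD mouse entered the CAC range.

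Matrix and collagen genes, which fibroblasts of the muscle express, had the largest median of the lists with more than 20 genes. Of 24 members 21 were higher, 12 of them at an unadjusted p under 0.05 (6.06% of all genes), at a median log2 fold change of 0.99. All KD mice were above all CAC mice in 2 (3.63% of all genes). Without KD-1 the median was 0.65. Col1a1, the main fibrillar collagen chain, was at 66.6, 52.3, 39.5 and 60.1 CPM in CAC mice, at 615, 112, 92.1 and 685 CPM in KD mice and at 512 to 878 CPM in NOR mice. KD-1 and KD-4 lay within the NOR range, whereas KD-2 and KD-3 were near the CAC mice (log2 fold change 2.80, SE 0.690, edgeR FDR 0.267, 0.0365 in the fit of all 16 libraries). Col3a1 was at 167, 98.1, 92.1 and 98.4 CPM against 1127, 196, 127 and 1201 CPM, and Col6a2, of the pericellular matrix, at 39.8, 38.9, 30.2 and 49.8 CPM against 223, 45.1, 69.4 and 241 CPM. The list's mean log2 CPM relative to NOR mice was 0.08, -1.30, -1.41 and 0.10 in KD-1 to KD-4 and -1.68 to -1.16 in CAC mice.

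Markers of several other cell types were, like these collagens, higher in KD-1 and KD-4 than in KD-2 and KD-3. Macrophage markers summed to 932, 248, 114 and 799 CPM in KD-1 to KD-4 and to 550 to 841 CPM in CAC mice, and adipocyte markers to 3890, 953, 896 and 3351 CPM against 764 to 5145 CPM. Tendon markers summed to 423, 201, 192 and 269 CPM in KD mice and 139 to 315 CPM in CAC mice. B lymphocyte markers, given above, were also high in KD-1 and KD-4 and near 0 in KD-2 and KD-3, with 3 and 2 of their 7 genes at 0 in those 2 libraries. The part of these cells in the collagen values was not tested.

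**Figure D5:**
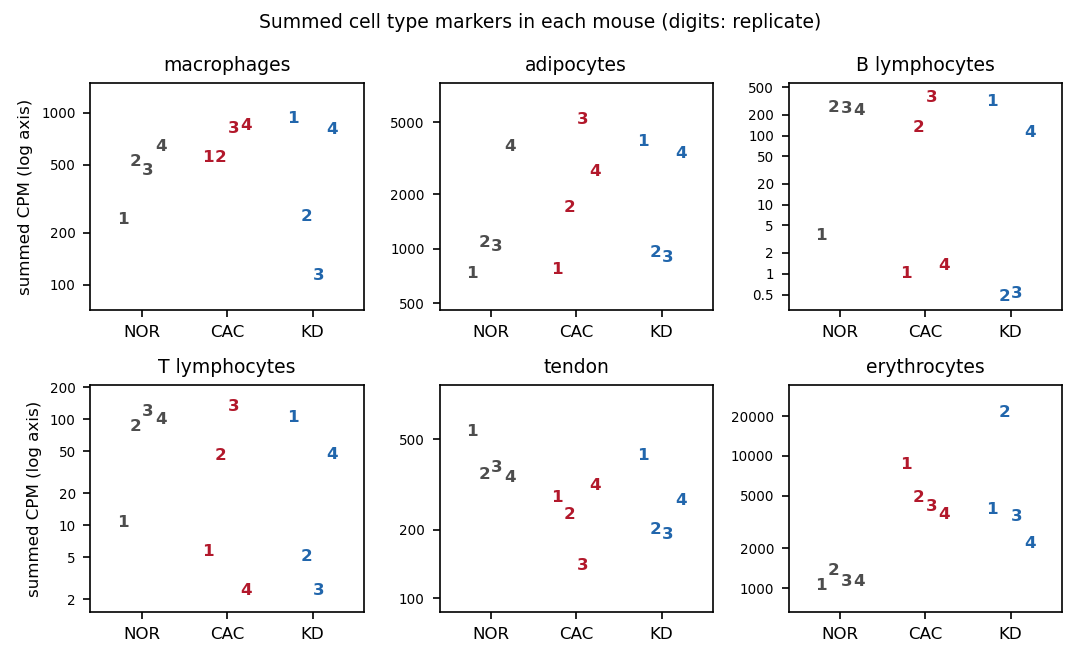
Summed CPM of markers of 6 cell types (y axis, log scale) in NOR, CAC and KD mice (x axis, digits are replicates). KD-1 and KD-4 are above KD-2 and KD-3 for macrophages, adipocytes, lymphocytes and tendon, and KD-2 is highest for erythrocytes at 21389 CPM.

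Of 15 circadian clock genes, 9 were higher and 6 lower, 4 and 3 at an unadjusted p under 0.05 (6.06% and 5.09% of all genes). Their median log2 fold change was 0.34, or 0.15 without KD-3 and 0.57 without KD-1. Dbp, an output gene of the clock, was at 20.5, 20.03, 6.34 and 17.2 CPM in CAC mice and at 62.1, 60.7, 182 and 189.8 CPM in KD mice (log2 fold change 2.94, SE 0.528, edgeR FDR 0.231). Arntl, which peaks in antiphase, was at 39.8, 30.5, 39.6 and 24.02 CPM against 16.4, 20.5, 6.44 and 4.65 CPM. NOR mice were themselves split along the labelled strain, with Dbp at 16.9, 25.9, 202 and 122 CPM in NOR-1 to NOR-4. KD mice were split the same way and CAC mice the other way. The hour of collection was not given in the sources used here. Of the 31-base words of Dbp, 16.9% were also found elsewhere in the transcripts.

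In the muscle itself, Rab27a was at 26.9, 21.2, 30.9 and 15.3 CPM in CAC mice and at 10.6, 12.5, 15.8 and 8.90 CPM in KD mice, where KD-3 exceeded CAC-4 (log2 fold change -0.98, SE 0.245, edgeR p 0.00339, FDR 0.267). NOR mice had 4.36 to 15.2 CPM. Rab27b was low in every mouse, at 0.723 to 1.07 CPM in CAC and 0.264 to 2.15 CPM in KD mice (log2 fold change 0.56, edgeR p 0.357). Of 20 genes of exosome release, 12 were lower and 8 higher, 4 and 0 at an unadjusted p under 0.05 (5.09% and 6.06% of all genes). Their median was -0.11, or -0.07 without CAC-4. The tetraspanin gene Cd63 was at 159, 155, 159.9 and 169.5 CPM against 89.7, 138, 99.7 and 119 CPM. Its groups did not overlap, as in 3.37% of all genes on that side.

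Whether the difference depended on the tumor line as labelled was tested with an interaction term. No gene passed an FDR of 0.05 (0%) by edgeR's quasi-likelihood test, 825 genes (5.65%) had an unadjusted p under 0.05, and DESeq2 gave 99 genes at that FDR. With 1 mouse left out, the 825 became 2142 without KD-2 and 370, 353 and 423 without CAC-1, CAC-2 and KD-3. Trim63 had a log2 fold change of -1.99 in the labelled C57BL/6 mice and -2.504 in the labelled BALB/c mice (interaction p 0.706 by edgeR), and Il6ra -1.47 and -1.93 (interaction p 0.161). Casq1 had 1.15 and 2.74 (interaction p 0.00663) and Nr3c1 -0.36 and 0.52 (interaction p 0.00507), neither past the FDR limit. Each of these values rests on 2 mice a group, and KD-2 is 1 of the 2 labelled C57BL/6 KD mice.

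The remaining lists had few members at an unadjusted p under 0.05. Unfolded protein response genes, which answer misfolded protein in the endoplasmic reticulum, were lower in 13 of 15 members at a median log2 fold change of -0.21 (-0.08 without CAC-4), but 0 were at that p in either direction. Interferon genes were lower in 12 of 16 (median -0.18, which was 0.51 without CAC-3, and 0 in either direction), and single mice decided their means: Irf7, a regulator of interferon genes, was at 9.13, 16.3, 105 and 11.4 CPM in CAC mice and at 19.7, 15.4, 14.1 and 20.9 CPM in KD mice. Myostatin, activin and BMP genes (18), denervation genes (14), myogenic regulators (12) and zinc handling genes (7) had median changes of -0.05, 0.06, 0.07 and 0.06, each moved by over 1.5 times by leaving out 1 mouse. Ketone body genes were higher in 7 of 9 with a median of 0.24 (0.16 without KD-3). Developmental and cardiac sarcomere genes were higher in 6 of 9, with a median of 0.34 that became -0.46 without KD-2.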

How the data were processed

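Poly(A) RNA of gastrocnemius from 16 mice had been sequenced by the authors, who deposited whole-number counts per gene for each library and FPKM beside them. Their processing notes name fastp, Bowtie2, HISAT2, StringTie 1.3.1, mm9 and GRCm38, with no role or order, and the counting tool and its use of strand were not given in the sources used here. Only the deposited counts entered tests, and the deposited columns of FPKM were not used for results. Replicates had not been pooled. Positions came from GENCODE on GRCm38 and matched 21905 of 21923 identifiers.

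Counts were scaled by TMM, genes with low counts were removed with filterByExpr (minimum count 10, minimum total 15), and KD and CAC mice were compared with edgeR 4.0.16 (glmQLFit and glmQLFTest, 8 libraries, no covariate). P-values were adjusted over all genes tested by Benjamini-Hochberg. DEGs followed the limits of the study (FDR no higher than 0.05, with a change of 1.5-fold or more upward or 0.667-fold or less downward), which used NOISeq, a tool not used here. CPM levels used TMM factors over all 16 libraries. Alternatives included DESeq2 1.42.0, limma 3.58.1 (voom), 3 other scalings, 2 other count filters, the labelled strain, the replicate number or a lymphocyte marker score as a covariate, all 16 libraries, each labelled strain alone, and each mouse left out. Fits over all other libraries without KD-2 or KD-3, and the fit without CAC-4 and KD-1, were chosen after the data were seen. A list score is the mean over members of log2(CPM + 1) minus the NOR mean and has no test. The fitting steps were tested on simulated data.

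The 8 libraries are those of the KD and CAC labels, but this comparison and the gene lists were chosen with earlier results of these data known. Named genes are Rab27a, Rab27b, each DEG, the 8 lowest p-values in each direction among genes averaging 5 CPM or more, and in each list the first 2 members and up to 5 with the lowest p. Where transcripts share 31-base words with other genes, counting could split their reads, as for Psmd2 (31.6% of words), Irs1 (30.7%), Aimp2 (29.5%), Myh7 (27.9%), Serpina3n and Arhgap27 (21.6% each) and Calm2 (18.1%). Each pair of replicates differed by more than sampling noise (chi-square per degree of freedom at least 71.2). Same-numbered CAC and KD mice did not deviate together (Pearson's r across genes -0.669, -0.138, -0.557 and -0.304 for numbers 1 to 4), so the numbers were not taken as pairs. With 4 mice a group the smallest two-sided exact permutation p is 0.0286. Intervals from depth cover counting error only and were not the limit at these totals. A gene that the naming rule gives is not reported here.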

Additional observations from a re-analysis of the deposited data

Results flagged for a closer look

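In 218 groups of 4 values examined (named genes and list scores in CAC and KD mice), a single mouse lay far from the other 3 (gap over range above Dixon's critical value) in 18, and chance gives about 1 in 20 groups. CAC-3 was high for 2 interferon-induced genes: Irf7 was at 104.68 CPM against 9.13 to 16.3 CPM in the other CAC mice, and Gbp2 at 108.58 against 23.6 to 25.7 CPM. Its interferon score was 1.42 against -0.54 to -0.24. CAC-3 was also low for Metrn (9.38 against 12 to 12.5 CPM) and Slc2a4 (546.54 against 697 to 706 CPM), and for the scores of amino acid, polyamine and creatine genes (-0.41 against -0.20 to -0.16) and of myogenic regulators (-0.29 against 0.10 to 0.13).

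CAC-4 was high for acute-phase and zinc-binding genes: Lcn2 was at 138.17 CPM against 14.3 to 31.2 CPM, Serpina3n at 299.85 against 51.6 to 72.9 CPM, Mt1 at 1011.2 against 170.4 to 251 CPM, and Mt2 at 596.8 against 149 to 182 CPM. Its zinc handling score was 0.68 against 0.11 to 0.14, and its proteasome score was low at 0.34 against 0.64 to 0.66. CAC-1 was high for Col3a1 (166.63 against 92.1 to 98.4 CPM) and Myf6 (318.11 against 235 to 245 CPM). Among KD mice, KD-2 was high for Slc39a14 (25.2 against 16.5 to 17.2 CPM), KD-3 for Irs1 (110.69 against 55.4 to 62.5 CPM), and KD-4 for Saa1 (0.235 against 0 to 0.0381 CPM).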

How the results depend on the processing

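The count of calls differed between tools, scalings and the libraries fitted. DEGs higher and lower in KD mice numbered 237 and 103 with DESeq2, 90 and 55 with all 16 libraries, 468 and 443 with DESeq2 without KD-2, 432 and 393 over all other libraries without KD-2, and 43 and 29 without KD-3. They were 0 and 2 with the lymphocyte score as a covariate, and 0 and 0 with RLE, upper-quartile or total-count scaling, limma-voom, a mean of at least 1 CPM, the labelled strain as covariate (with or without KD-2), either labelled strain alone, and without CAC-4 and KD-1. Leaving out 1 mouse gave 0 higher and 0 to 1 lower, the 1 (Il6ra) only without CAC-1. With the replicate block there were 0 and 0 DEGs, and 498 and 413 genes at an unadjusted p under 0.05; the numbers do not pair the mice.

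At that p, total counts gave 570 higher and 1591 lower genes (median log2 fold change over all genes -0.11), the labelled C57BL/6 mice alone 217 and 160, and all 16 libraries 1152 lower. Without KD-2, DESeq2 gave 1350 and 1462, all other libraries 1546 and 1848, and the strain covariate 1217 lower. Leaving out 1 mouse gave 633 to 1111 higher and 408 (KD-4) to 1386 (KD-2) lower, with 455 without CAC-3 and 490 without CAC-1. Genes without overlap numbered 299 above and 1188 below with total counts, and 1035 and 1378 without KD-2. The interaction with the labelled tumor line gave 99 genes with DESeq2 and 0 to 2 with 1 mouse left out, the 2 (Uty and Ddx3y, both Y-linked) only without KD-4. Without KD-4, KD-3 is the only labelled BALB/c KD mouse, and it had 0.00 CPM over 4 Y-linked genes, Uty and Ddx3y among them. The cause was not tested.

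Of 84 named genes, 79 kept their direction throughout. Log2 fold changes turned in the labelled C57BL/6 mice alone for Gbp2 (0.29), Irf7 (0.49), Slc2a4 (-0.018) and Nr3c1 (-0.36) and in the labelled BALB/c mice alone for Rab27b (-0.27). The Nr3c1 log2 fold change was -0.0266 with total counts and -0.0134 over all other libraries without KD-3. With 1 mouse left out they ran from -0.91 to 0.20 (Gbp2) and -1.30 to 0.53 (Irf7), each highest without CAC-3, and from -0.011 (without KD-3) to 0.16 (Nr3c1). The medians of 14 of 25 lists kept their sign in 27 alternatives, among them proteasome (-0.62 to -0.32), glycolysis (0.28 to 1.36) and matrix (0.65 to 1.17) genes. Others of the 14 came near 0 in a single labelled strain: acute-phase (-1.97 to -0.11), IL-6 family (-1.11 to -0.14), fast sarcomere (0.06 to 0.85) and fatty acid (0.03 to 0.34) genes, and amino acid genes with total counts (0.0083).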

Other observations

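C1qtnf4, which encodes a secreted protein of the C1q and TNF family, was chosen after its values were seen. It had 0 counts in all 4 CAC mice and 229, 491, 244 and 192 counts in KD-1 to KD-4, at least 51.1-fold higher (lowest KD mouse, 3.48 CPM, against the highest floor of 3 counts per CAC library, 0.0680 CPM). NOR-2 also had 0 counts, and the other NOR mice had 223 to 265. The zeros were taken as deposited, and whether they arose in the assembly or counting of transcripts was not tested, so the ratio describes the deposited counts alone. It was the only gene with 0 counts in every mouse of 1 group and at least 20 in every mouse of the other. In the same table CAC-4, AM-1, AM-3 and KD-1 stood together against the other 12 libraries in 14 genes by at least 4-fold, although their labels place 2 in each strain.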
